A study of Mus musculus with 12 samples.

Results

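The colony-stimulating factors and their receptors form a group of 8 mouse genes: the ligands Csf1, Csf2 and Csf3, and the receptor chains Csf1r, Csf2ra, Csf2rb, Csf2rb2 and Csf3r. They were taken by exact gene symbol from the array, on which 22180 genes had a row of their own, and all 8 were found. The samples were bone marrow-derived macrophages (BMDMs), grown in culture from the marrow of mice, and fell into 4 groups of 3 arrays. The groups were wild-type cells with saline, wild-type cells with R848, knockout cells with saline and knockout cells with R848. R848, also called resiquimod, activates TLR7, a sensor of single-stranded RNA in endosomes, and was left on the cells for 4 h. No duration is stated for saline. The knockout mice carried Rasgef1b_fl/fl_vav-icre, a floxed Rasgef1b gene with a Cre recombinase driven by Vav, which is active in blood-forming cells. Rasgef1b encodes an exchange factor that activates Ras-family GTPases. The labels name no group with Cre alone and give no age. Nor do they say whether the 3 replicates of a group were separate animals or cultures, so the p-values below speak only of variation among these arrays, part or all of which may be technical.

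CSF1 (M-CSF) keeps macrophages alive and growing through CSF1R, a receptor tyrosine kinase. CSF2 (GM-CSF) acts through its own alpha chain, CSF2RA, joined to the beta chain CSF2RB, which interleukin 3 and interleukin 5 receptors also use. The mouse has a second beta chain, CSF2RB2, which serves interleukin 3. CSF3 (G-CSF) drives the output of neutrophils through CSF3R, and macrophages are a known source of it after Toll-like receptor signals. All 4 groups were grown in medium with 30% of L929 cell supernatant, which is widely used because these fibroblasts release CSF1 protein. The arrays read the macrophages' own mRNA, so this outside CSF1 is not in the values below, and every group had it.

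Values are log2 intensities after RMA (background correction, quantile normalization and a summary of the probes of a row), so a difference of 1 is a doubling. They do not compare levels between genes, because each row has its own probes. A gene counted as dim on an array if it did not exceed that array's 40th percentile (4.31 to 4.35, over rows named by a single symbol), and it was tested if it exceeded this limit on at least 3 arrays. Of the 8 genes 7 were tested, within 14079 genes in all. Csf2 was not, since its row stayed under the limit on all 12 arrays. Pearson r between replicate arrays, across the tested genes, was 0.9909 to 0.9964. The macrophage markers were bright in all groups, with 8 of 8 above the limit on every array. Rasgef1b itself stood at 9.12 ± 0.08 (SD, n = 3) in wild type with saline and 9.79 ± 0.09 with R848, and at 8.41 ± 0.46 and 9.14 ± 0.47 in knockout. Its knockout difference was -0.71 with saline and -0.65 with R848 (limma adjusted p = 0.158 and 0.333), and -0.68 averaged over treatments (limma adjusted p = 0.036, and 0.0189 to 0.098 over the alternative settings), so the row carries signal in the knockout and checks the labels only in part.

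RefSeq promoter entries (GRCm38.p6) were read for only 5 of the 8 genes. Those of 3 are shown, to set the genes with the largest changes beside one that was not called: Csf1 and Csf3r rose most with R848, and Csf2ra did not pass the test. Each line holds the 250 bases before the start of the entry, 5′ to 3′ on the gene's strand, and capitals mark matches to the motifs searched.
Csf1, chr3:107760470-107760719, minus strand: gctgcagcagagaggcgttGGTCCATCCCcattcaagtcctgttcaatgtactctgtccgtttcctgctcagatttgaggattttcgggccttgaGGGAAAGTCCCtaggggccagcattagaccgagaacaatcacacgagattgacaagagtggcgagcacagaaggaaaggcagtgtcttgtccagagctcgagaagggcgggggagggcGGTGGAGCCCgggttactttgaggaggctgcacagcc
Csf3r, chr4:126024409-126024658, plus strand: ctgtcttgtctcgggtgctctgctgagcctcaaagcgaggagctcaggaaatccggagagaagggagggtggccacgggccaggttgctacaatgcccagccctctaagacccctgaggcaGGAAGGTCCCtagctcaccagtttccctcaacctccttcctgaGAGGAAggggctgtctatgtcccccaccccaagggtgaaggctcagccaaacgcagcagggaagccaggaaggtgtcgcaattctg
Csf2ra, chr19:61228419-61228668, minus strand: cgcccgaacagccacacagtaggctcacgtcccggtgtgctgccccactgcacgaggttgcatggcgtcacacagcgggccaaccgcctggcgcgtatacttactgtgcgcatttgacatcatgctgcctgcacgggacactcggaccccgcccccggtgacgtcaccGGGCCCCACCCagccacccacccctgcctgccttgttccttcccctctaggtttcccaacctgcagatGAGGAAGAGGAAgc

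The motifs were GGG and CC with any 5 letters between them for NF-kB, TGANTCA for AP-1, GAGGAA for PU.1, TTGCNNAA for C/EBP and AGATTCC for the core of the CK-1 box on both strands, and TATAAA for the TATA box on the gene's strand. In Csf1 all capitals are NF-kB letters, with 4 matches, of which those from -155 to -146 and from -154 to -145 overlap on opposite strands. Positions count back from the start of the entry. Csf3r held 1 NF-kB match, from -129 to -120, and 1 PU.1 match, from -86 to -81. Csf2ra held 2 overlapping NF-kB matches and 2 PU.1 matches in a row, between -14 and -3. The NF-kB letters are loose: 45.8% of the 32851 promoter windows of this length hold them, and 23.3% hold the PU.1 letters. AP-1, C/EBP, the TATA box and the CK-1 core, found in 6.75%, 9.56%, 7.59% and 3.14% of all windows, had no match in these 3 windows. Of the other 2 windows, that of Csf2rb2, the other tested gene not called in wild type, held 1 PU.1 match, and that of Csf2 held 1 C/EBP match, with no NF-kB letters in either. The matches are a description of letters, not of bound sites. The Csf3r window lies inside the span that RefSeq gives the gene, and the end of the Csf2ra window with both PU.1 matches lies inside that gene's span too.

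The question of the first comparison is how macrophages change these genes when TLR7 is engaged. In wild-type cells R848 raised 2 of the 3 ligand genes past the test, Csf1 and Csf3, and 2 of the 5 receptor genes, Csf3r and Csf2rb, while it lowered Csf1r. Thus 5 of the 7 tested genes were called, 4 higher and 1 lower, where 38.3% of all tested genes were called, 14.6% higher and 23.6% lower. The median change of the 7 was 0.58, against -0.02 over all tested genes. In knockout cells the same 5 genes were called in the same directions (41.6% of all tested genes called, 15.6% higher and 26% lower), with a median of 0.53 against -0.03. The saline and R848 arrays did not overlap for 5 of the 7 genes in wild type and for 6 in knockout, against 48.1% and 48.8% of all tested genes. In bulk RNA, a change in the share of cells that make a transcript and a change in its amount per cell cannot be told apart.

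Csf1 (chr3:107741048-107760469, GRCm38.p6 as for the genes below) encodes the growth factor of the macrophage lineage. In wild type its values were 5.12, 5.21 and 5.42 with saline and 7.40, 7.25 and 7.13 with R848, with a wide gap between the groups. It rose by 2.01 ± 0.21 (SE, limma adjusted p = 1.9e-06), which is 4.03-fold on this scale. In knockout cells the saline arrays were far apart, at 5.78, 5.18 and 4.57, and the R848 arrays close together, at 7.69, 7.63 and 7.42. The rise there was 2.40 ± 0.21 (limma adjusted p = 2.57e-07). Fibroblasts and endothelial cells can also make CSF1. Of 8 fibroblast and stromal markers 3 were dim on all 12 arrays, Pdgfra, Dcn and Lum. The other 5, Col1a1, Col1a2, Col3a1, Pdgfrb and Thy1, exceeded the limit on every array. The mean level of the 8 was 4.43 to 4.5 with saline and 4.53 to 4.56 with R848 in wild type. In knockout it was 4.43 to 4.44 and 4.52 to 4.63. Pdgfrb rose by 0.47 in wild type (limma adjusted p = 0.0025) and 0.39 in knockout (limma adjusted p = 0.00826). Of 7 endothelial markers 3 were dim on all arrays, Tek, Emcn and Cldn5. The other 4, Pecam1, Cdh5, Kdr and Vwf, exceeded the limit on every array. The mean level of the 7 was 4.44 to 4.59 and 4.53 to 4.63 in wild type, and 4.44 to 4.52 and 4.59 to 4.67 in knockout. The endothelial markers Kdr and Pecam1 rose with R848, by 0.51 and 0.33 in wild type (limma adjusted p = 0.000579 and 0.00667) and by 0.84 and 0.45 in knockout (limma adjusted p = 4.98e-06 and 0.000659). Vwf fell by 0.33 in wild type and 0.46 in knockout (limma adjusted p = 0.0285 and 0.00334). The part of such cells in the Csf1 values was not tested. R848 put every array of both genotypes above every saline array, while the order of the saline groups is not resolved: the 3 wild-type saline values lie within the range of the knockout ones.

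Csf3 (chr11:98700183-98703631) encodes the granulocyte factor and rose in both genotypes, from values near the dim limit with saline. It exceeded this limit on all R848 arrays, but on only 2 knockout and 0 wild-type saline arrays. Csf3 thus entered the tested genes through its R848 arrays. Wild-type cells gave 4.2, 3.99 and 4.26 with saline, all dim, and 5.44, 5.78 and 5.57 with R848. The rise was 1.45 ± 0.11 (SE, limma adjusted p = 4.54e-08), or 2.73-fold. Knockout cells gave 4.18, 4.34 and 4.49 with saline and only 4.96, 4.78 and 4.87 with R848. There the rise was 0.53 ± 0.11 (limma adjusted p = 0.00084), or 1.45-fold. The 3 knockout R848 arrays thus lie between the saline arrays and the wild-type R848 arrays and overlap neither. Background is a large part of the signal of a dim row, so both folds may be understated.

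Csf2 (chr11:54247270-54249899) encodes the granulocyte and macrophage factor. Wild-type values were 3.44, 3.33 and 3.27 with saline and 3.71, 3.97 and 3.78 with R848, and knockout values 3.31, 3.36 and 3.32 with saline and 3.75, 4.0 and 4.08 with R848. All 12 are dim, yet in both genotypes every R848 array is above every saline array. Fitted with no filter on dim rows, the changes were 0.47 ± 0.09 in wild type (limma adjusted p = 0.00113) and 0.61 ± 0.09 in knockout (limma adjusted p = 0.000106). A second row of Csf2 read 3.40, 3.37 and 3.42 with saline and 3.48, 3.47 and 3.42 with R848 in wild type, and 3.45, 3.65 and 3.35 and 3.61, 3.36 and 3.56 in knockout. Its saline and R848 arrays overlap or touch, so the 2 rows disagree. The sources used here do not say which part of the transcript each reads. Il3, which encodes another ligand of the beta chains, stayed between 3.19 and 3.43 on all 12 arrays and was not tested.

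**Figure D1:**
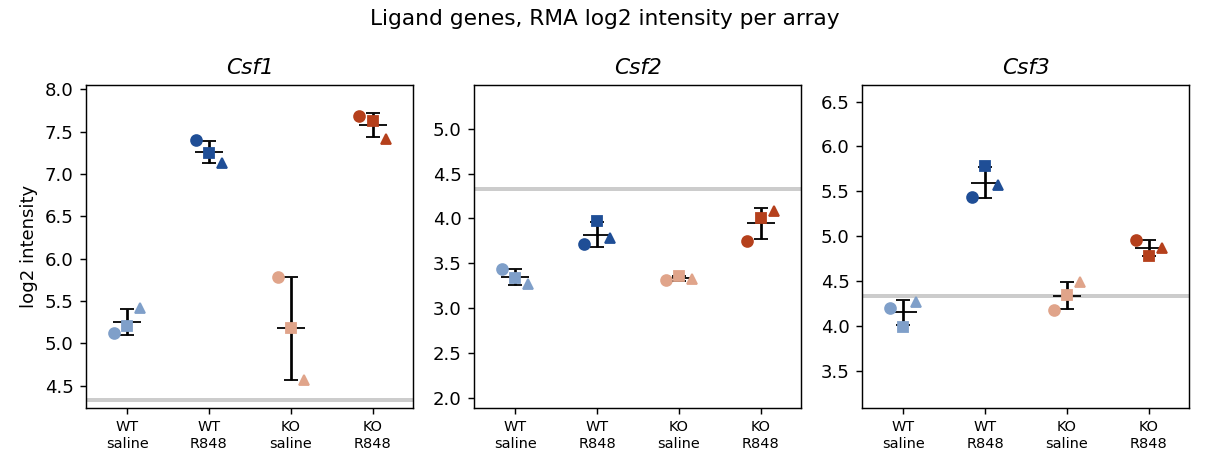
RMA log2 intensity of the ligand genes on each of the 12 arrays (circle, square and triangle for replicates 1, 2 and 3; WT, wild type; KO, knockout). The bar is the mean and the whiskers 1 SD of 3 arrays, the grey band is the dim limit of 4.31 to 4.35, and each panel has its own range. Csf1 rises in both genotypes, Csf2 stays under the band, and the Csf3 arrays of R848-treated knockout cells (4.78 to 4.96) lie under those of wild type (5.44 to 5.78).

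Among the receptors, Csf3r had the largest change of all 7 tested genes in wild type. It encodes the receptor for CSF3 (chr4:126023441-126044975). Its values went from 7.30, 7.19 and 7.16 with saline to 9.79, 9.57 and 9.64 with R848, a rise of 2.45 ± 0.10 (SE, limma adjusted p = 4.68e-11), or 5.46-fold. In knockout it went from 7.50, 7.80 and 7.41 to 9.69, 9.79 and 9.72, a rise of 2.16 ± 0.10 (limma adjusted p = 1.69e-10). The R848 arrays of both genotypes form 1 tight cluster, more than 1 unit above every saline array. CSF3R is abundant on neutrophils, so the markers of neutrophils and their precursors were read beside it. Of these 10 markers 5 were dim on all 12 arrays, among them S100a8, Ly6g and Camp. S100a9, Elane and Cxcr2 exceeded the limit on every array. Their group means were low, from 4.43 to 5.19, against a limit of 4.31 to 4.35. The mean level of the 10 was 3.84 to 3.94 in wild type with saline and 3.86 to 3.94 with R848. In knockout it was 3.88 to 3.90 and 3.97 to 3.99. In wild type 0 of the 3 tested markers passed limma's threshold (0 at an unadjusted p under 0.05), where 38.3% of all tested genes passed. In knockout S100a9 rose by 0.32 (limma adjusted p = 0.0119) and Elane fell by 0.20 (limma adjusted p = 0.033).

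Csf1r, on chromosome 18, encodes the CSF1 receptor and fell. Wild-type values were 10.83, 10.84 and 10.88 with saline and 10.56, 10.50 and 10.47 with R848. The change was -0.34 ± 0.08 (SE, limma adjusted p = 0.00243), which is 1.27-fold lower. Knockout values were 11.13, 10.93 and 10.89 with saline and 10.60, 10.46 and 10.53 with R848, a change of -0.45 ± 0.08 (limma adjusted p = 0.000215), or 1.37-fold lower. The saline and R848 arrays do not overlap in either genotype, though the row stays bright everywhere. Ligand and receptor of this pair thus moved in opposite directions, with a much larger change in the ligand's mRNA.

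The GM-CSF receptor chains changed less. Csf2rb, the common beta chain (chr15:78325800-78351001), read 6.59, 6.36 and 6.22 with saline and 7.20, 6.71 and 6.99 with R848 in wild type. It rose by 0.58 ± 0.15 (SE, limma adjusted p = 0.00567). In knockout it read 6.56, 6.32 and 5.98, and 7.06, 6.85 and 6.89, and rose by 0.65 ± 0.15 (limma adjusted p = 0.00234). In both genotypes the lowest R848 array is above the highest saline array. Csf2rb2, its neighbour (chr15:78282507-78305721), read 8.95, 8.93 and 8.61 with saline and 9.36, 8.88 and 9.02 with R848 in wild type, and 8.97, 8.87 and 8.66 and 9.33, 9.08 and 8.92 in knockout. Here the saline and R848 arrays overlap, and the differences were 0.26 and 0.28 (limma adjusted p = 0.171 and 0.129). With the replicate number as a block across all 4 groups, the knockout difference of Csf2rb2 passed the threshold (limma adjusted p = 0.0248). The correlations of residuals between same-numbered arrays reached 0.1 for every number only within knockout. With arrays paired by genotype and number, the knockout difference of Csf2rb2 did not pass (limma adjusted p = 0.0797). Both beta chain genes read highest on replicate 1 in each of the 4 groups. The proteins are close relatives and the probe sequences were not used here, so a share of one gene's signal that comes from the other's transcript cannot be told apart.

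Csf2ra, the alpha chain specific to GM-CSF (chr19:61217191-61228461), read 10.48, 10.59 and 10.17 with saline and 10.61, 10.34 and 10.31 with R848 in wild type. The difference was 0.01 with a 95% interval of -0.29 to 0.30 (limma adjusted p = 0.979), so changes beyond about that size are outside the interval. In knockout it read 10.66, 10.62 and 10.78, and 10.51, 10.02 and 10.51, with a difference of -0.34 (limma adjusted p = 0.0613). The knockout groups do not overlap, and replicate 2 is the lowest of the R848 arrays by far. The difference passed the threshold after median centring of the arrays (limma adjusted p = 0.04), with correlated pairs of arrays (0.0345), and without wild-type saline replicate 3 (0.0432) or knockout R848 replicates 1 or 3 (0.04 and 0.0411). It was -0.18 without knockout R848 replicate 2 (limma adjusted p = 0.301).

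**Figure D2:**
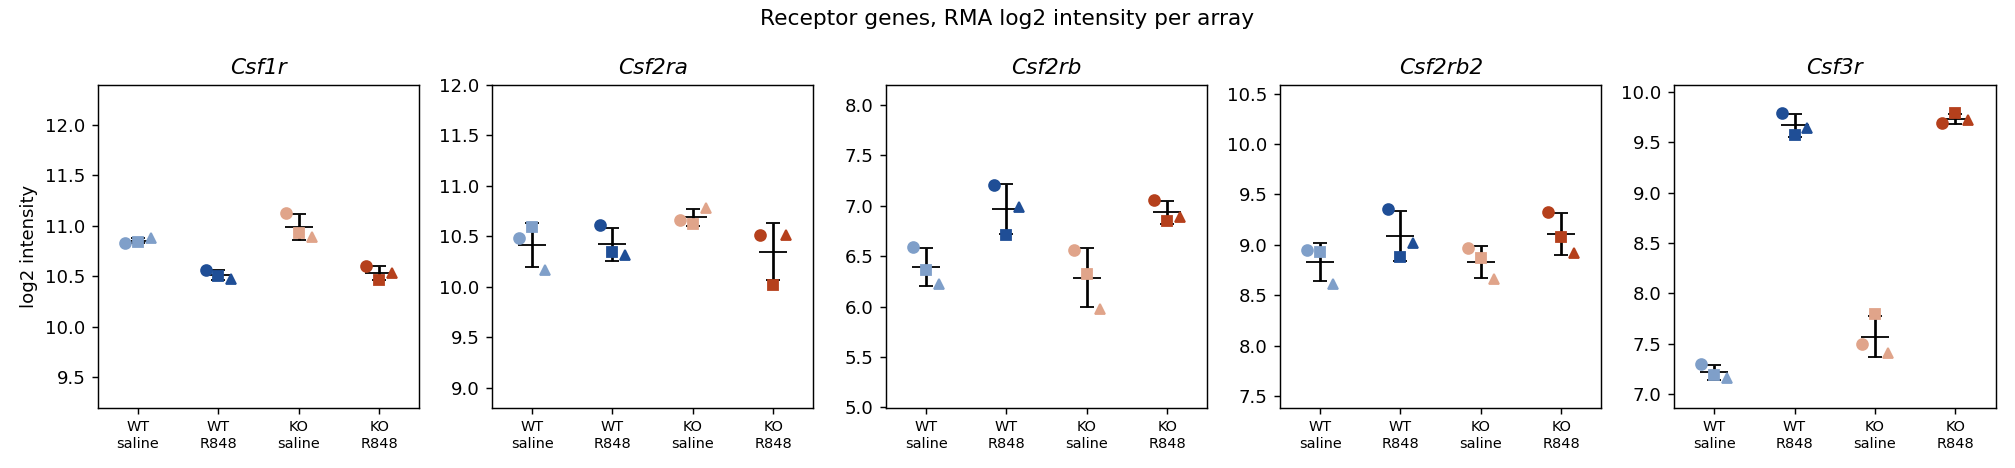
RMA log2 intensity of the receptor genes on each of the 12 arrays, drawn as for the ligands (replicates as circle, square and triangle, mean and 1 SD of 3 arrays) and with a range of its own in each panel. Csf3r rises from between 7.16 and 7.80 to between 9.57 and 9.79, Csf1r falls slightly without overlap, and Csf2rb2 overlaps between treatments in both genotypes and Csf2ra in wild type.

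**Figure D3:**
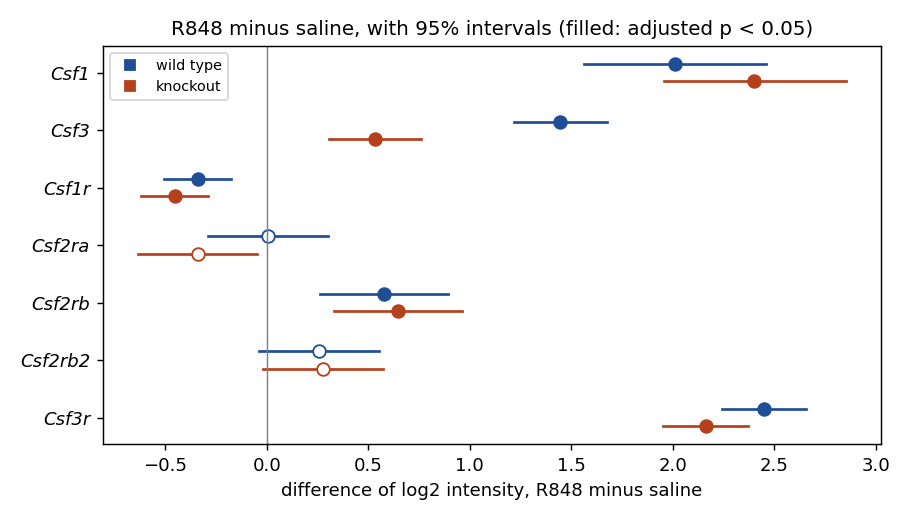
Difference of log2 intensity, R848 minus saline, for the 7 tested genes in wild type and knockout; points are limma estimates and lines their 95% intervals, unadjusted for the number of genes. Filled points passed the adjusted threshold. The intervals of the genotypes overlap for every gene but Csf3, at 1.45 in wild type and 0.53 in knockout.

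The second question is whether the knockout alters these genes. With saline 0 of the 7 were called by limma, where 0.334% of all tested genes were, and 1 had an unadjusted p under 0.05. That was Csf3r, at 7.22 ± 0.07 in wild type and 7.57 ± 0.20 in knockout (SD, n = 3), a difference of 0.35 (limma adjusted p = 0.134). Its groups did not overlap, and neither did those of Csf1r (0.13) and Csf2ra (0.27), as was the case for 16.1% of all tested genes. The remaining differences with saline were 0.19 for Csf3, -0.07 for Csf1, -0.10 for Csf2rb and 0.00 for Csf2rb2. The interval was wide for Csf1, from -0.52 to 0.38.

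With R848, Csf3 was lower in knockout than in wild-type cells, by -0.73 ± 0.11 (SE, limma adjusted p = 0.00758), which is 1.66-fold. It was the only one of the 7 genes called, in a comparison that called 0.135% of all tested genes (19 genes), 0.0781% as lower. Among these 19 Csf3 came 14th by p, and 8th by size among the 11 that were lower. The call ended without wild-type R848 replicate 2, the highest Csf3 array (-0.64, limma adjusted p = 0.0579), and without knockout R848 replicate 2, the lowest (-0.68, limma adjusted p = 0.0725). Knockout replicate 2 also had the lowest Rasgef1b value of the R848 arrays, at 8.60 against 9.45 and 9.36 for replicates 1 and 3. With saline, knockout replicate 2 was lowest for Rasgef1b too, at 7.88 against 8.63 and 8.72. Its Csf3 value there, 4.34, lay between those of replicates 1 and 3, 4.18 and 4.49. A link between the 2 genes was not tested. Of the other genes, Csf1 differed by 0.32 (limma adjusted p = 0.724), although its knockout arrays, from 7.42 to 7.69, lay above the wild-type ones, from 7.13 to 7.40. Groups that did not overlap made up 13.8% of all tested genes in this comparison. Csf3r differed by 0.07, with an interval of -0.14 to 0.28, and the remaining 4 genes by -0.07 to 0.02. Csf2, by its dim row, differed by 0.12 with no filter (limma adjusted p = 0.803).

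**Figure D4:**
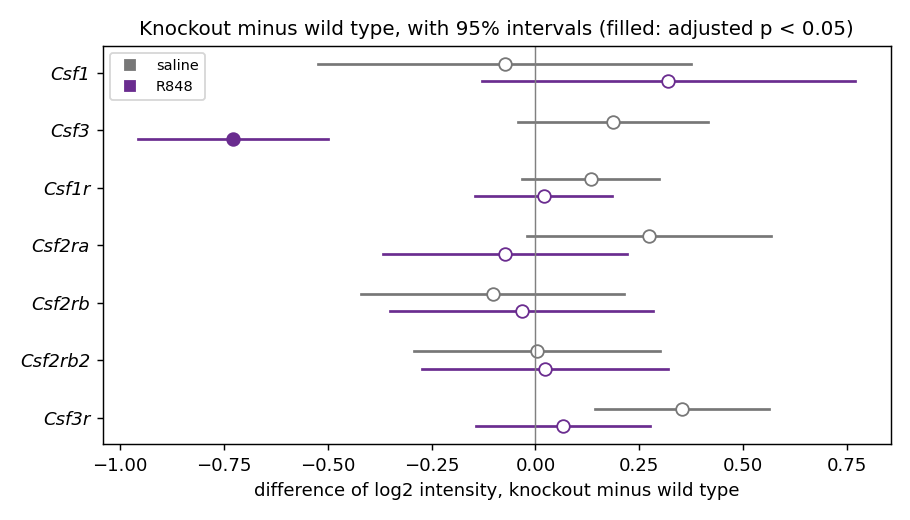
Difference of log2 intensity, knockout minus wild type, for the 7 tested genes with saline and with R848; points are limma estimates, lines their unadjusted 95% intervals, and filled points passed the adjusted threshold. Csf3 with R848, at -0.73, is the only filled point, and Csf3r with saline, at 0.35, has an interval above 0 but did not pass after adjustment.

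The difference between the R848 responses of the genotypes (the interaction) was called for 0 of the 7 genes by limma, with 1 at an unadjusted p under 0.05, and for 0.0142% of all tested genes. Csf3 had the value farthest from 0 among the 7, at -0.91 ± 0.15 (SE, limma adjusted p = 0.127), which is 3rd by p among the 14079 genes. It passed with array weights (-0.98, limma adjusted p = 0.0481), and its adjusted p under the remaining alternatives ran from 0.0713 to 0.552. Thus Csf3 passed the comparison under R848, while the test of its response itself did not pass. Csf1 had an interaction of 0.39, Csf2ra one of -0.35 and Csf3r one of -0.29, each with an interval that includes 0. Averaged over treatments, 0 of the 7 genes were called by limma, with 2 at an unadjusted p under 0.05 and 1.78% of all tested genes called. The 2 were Csf3 (-0.27, limma adjusted p = 0.0858) and Csf3r (0.21, limma adjusted p = 0.143).

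The order of the 4 groups differed between the genes. Csf1 ran from knockout R848 through wild-type R848 to the saline groups, of which only the latter 2 overlap. Csf3 ran from wild-type R848 through knockout R848 to knockout saline and wild-type saline, again with overlap only between the saline groups. For Csf3r the R848 groups overlap at the top and knockout saline is above wild-type saline. Csf1r ran from knockout saline through wild-type saline to the R848 groups, which overlap. Csf2rb had both R848 groups above both saline groups, with overlap within each treatment, and for Csf2rb2 all neighbours overlap. For Csf2ra knockout saline stood above the other groups, which overlap.

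Genes around the receptors were read from 7 lists with 76 genes, of which 66 were tested. In wild type R848 raised 28 of them and lowered 14, and in knockout it raised 30 and lowered 15. Called genes made up 63.6% of the 66 in wild type and 68.2% in knockout, against 38.3% and 41.6% of all tested genes. Because the lists were chosen with earlier results of these data known, these shares are a description only. For the lists below, the shares over all tested genes were 14.6% higher and 23.6% lower in wild type, and 15.6% and 26% in knockout. Of 20 tested genes of receptor-proximal signalling, 11 rose and 3 fell in wild type, with a median of 0.28 against -0.02 over all tested genes. Jak2, the kinase bound to the beta chain, rose by 2.84, Src by 2.08 and Stat5a, the transcription factor that the beta chain activates, by 1.86. Inpp5d, which encodes the inositol phosphatase SHIP1 that limits CSF1R signals, fell by 2.34. In knockout 11 rose and 4 fell, with Jak2 at 2.94, Src at 2.03, Gab3 at -1.77 and Inpp5d at -2.64. Of 12 STAT5-linked target genes 6 rose and 0 fell in wild type. Socs3, a suppressor of cytokine receptors, rose by 4.64, the kinase genes Pim1 and Pim2 by 2.60 and 1.60, and Socs1 by 1.63. In knockout 7 rose, with Socs3 at 4.79 and Pim1 at 2.85, and 1 fell. The remaining 6 in wild type and 4 in knockout were not called. Among them in both genotypes were Cish (0.05 and 0.18), Socs2 (-0.02 and 0.01) and Bcl2l1 (0.03 and -0.06).

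Transcription factors known to drive the myeloid receptor genes were split: 3 of the 10 tested rose and 6 fell in wild type, with Cebpb at 2.25, Ets2 at 1.66, Cebpa at -1.70 and Egr2 at -0.86. In knockout 3 rose and 4 fell, with Cebpb at 2.33, Ets2 at 2.04, Cebpa at -1.88 and Egr2 at -0.81. Csf2 and Csf3 messages carry AU-rich elements that decay factors bind. Of 9 genes on a mixed list of decay and stability factors, not all of which act through these elements, 4 rose and 3 fell in both genotypes. The decay activator genes Zfp36l2 and Zfp36l1 fell, with differences of -3.5 and -2.80 in wild type, while Zc3h12a, which encodes the RNase Regnase-1, and Zfp36, which encodes tristetraprolin, rose by 2.85 and 1.87. In knockout these 4 stood at -3.68, -3.00, 2.72 and 1.79. Of the sheddase list, whose enzymes cut CSF1R from the cell surface, 2 of 4 rose and 1 fell in wild type. Rhbdf2, which carries ADAM17 to the surface, rose by 2.35 and Adam17 by 0.93, and Adam10 fell by 0.45. In knockout 3 rose, with Rhbdf2 at 2.35 and Adam17 at 0.90, and 1 fell. Of 9 GM-CSF-linked genes, the chemokine genes Ccl22 and Ccl17 rose by 4.12 and 1.56 in wild type and Pparg, a nuclear receptor gene, fell by 0.69. The other 6 were not called in wild type, among them Cd209a (0.05), Flt3 (0.12) and Batf3 (-0.01). The median of the 9 was 0.12, against -0.02 over all tested genes. In knockout Ccl22 and Ccl17 rose by 4.09 and 1.54, and Pparg and Cd209a fell by 0.70 and 0.51. There the other 5 were not called, and the median was -0.03, as over all tested genes. Among the receptor partners Il34, the other CSF1R ligand, and Il3ra were tested, and neither was called in either genotype.

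Between genotypes, 0 of these 66 genes were called by limma with saline and 0 with R848, where 0.334% and 0.135% of all tested genes were. Of the 66, 8 and 2 had an unadjusted p under 0.05, as did 1767 and 1230 of all 14079. Their differences ran from -0.45 to 0.52 with saline and from -0.27 to 0.18 with R848. Averaged over treatments 1 was called, Hnrnpd, which encodes the AU-rich element binding protein AUF1, at -0.28 (limma adjusted p = 0.0284), which is 1.52% of the 66 against 1.78% of all tested genes. Of the neutrophil markers, S100a9 was 4.72 in wild type and 5.19 in knockout with R848 (0.47, limma adjusted p = 0.0866), and it passed averaged over treatments (0.30, limma adjusted p = 0.0375). The part of these cells in the Csf3 and Csf3r values was not tested.

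**Figure D5:**
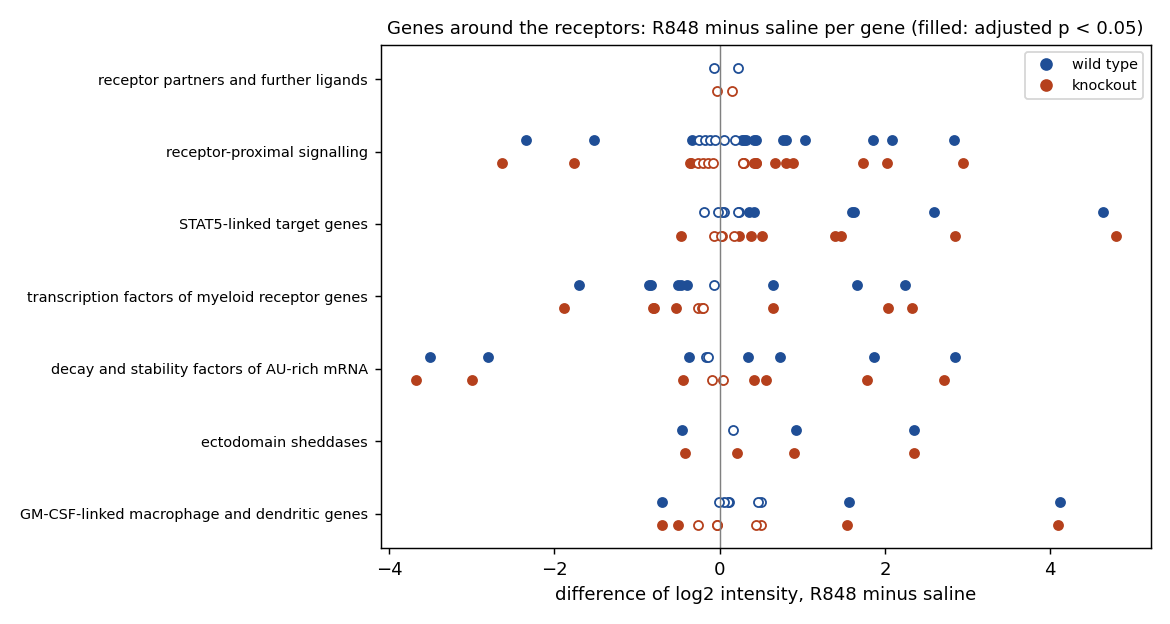
Difference of log2 intensity, R848 minus saline, for the 66 tested genes of the 7 lists around the receptors, 1 point per gene with wild type above knockout in each row; filled points passed the adjusted threshold. Socs3, at 4.64 and 4.79, is farthest to the right, and Zfp36l2, at -3.5 and -3.68, farthest to the left.

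Finally, for the 3 tested genes whose group means spanned at least 1, the genes with the most similar pattern over the 12 arrays were sought by Pearson r among 12561 named genes. These r rest on 12 arrays in 4 groups, mostly on the gap between treatments, and are given as a description. For Csf3r they were Tnfrsf1b, the second TNF receptor (0.9974), Rassf4 (0.997) and Cd274, which encodes PD-L1 (0.997). For Csf1 they were Pigv (0.9912), the copper transporter gene Slc31a1 (0.9907) and Pdcd10 (0.9889). For Csf3 they were Sdc1, which encodes the proteoglycan syndecan 1 (0.9577), Cxcl1, a neutrophil chemoattractant (0.9556), and the connexin gene Gja1 (0.9429). Cxcl1 read 4.24 and 8.17 in wild type and 4.52 and 5.42 in knockout, and Sdc1 5.22 and 6.01, and 5.24 and 5.63, with saline and R848 in turn. As with Csf3, knockout cells with R848 stood between the saline groups and wild type with R848. Both genes were picked for likeness to Csf3 on these same arrays, so the shared order largely follows from the choice. Between genotypes with R848, Cxcl1 was called (-2.76, limma adjusted p = 1.5e-07) and Sdc1 was not.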

How the data were processed

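Per the submitters' processing notes, the authors processed 12 Mouse Gene 2.1 ST arrays with Affymetrix Expression Console and RMA, and deposited log2 values. The sources used here give no versions or settings. The labels' protocols give 250 ng of total RNA per array with an integrity number of 10. Rows were named by the platform table: 23521 of 34472 had 1 symbol, and a gene with several rows was read from its brightest one on average. All 12 arrays entered 1 limma 3.58.1 model in R 4.3.3 (lmFit and eBayes, a mean per group, no covariate), with Benjamini-Hochberg adjustment over 14079 genes per contrast and a threshold of 0.05. The number of arrays limits the precision. The code was tested on simulated data. Pairing by replicate number was checked by correlation of residuals. The minimum of 0.1 was met for every number only between knockout saline and knockout R848 (0.27, 0.17 and 0.28), so this pairing rests on the values rather than on any label.

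The genes and lists were chosen with earlier results of these data known. All 8 genes and Rasgef1b are always named, and of each list up to 4 genes with the largest change per contrast, called ones first. Markers of macrophages, neutrophils, fibroblasts and endothelial cells were read by level and count. Dendritic, B, mast cell and basophil, and T and NK cell markers were read too. In each group, all arrays exceeded the limit for 5 of 8 dendritic and 3 of 6 B cell markers. The counts were 1 of 7 for mast cells and basophils and 0 of 7 for T and NK cells. Alternatives were median centring, cyclic loess, array weights, robust eBayes with a trend, no filter, a filter at the 60th percentile, a replicate block, correlated pairs of the same genotype and number, only the arrays compared, the dimmest row per gene, and each array left out. Batches could not be examined, as scan dates were not used here.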

Additional observations from a re-analysis of the deposited data

How the results depend on the processing

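Under the 22 alternatives (21 for the interaction and the averaged difference, where using only the arrays compared does not apply), the 5 genes called for R848 kept their direction and their call in both genotypes. The number of these genes called between genotypes with R848 ran from 0 to 1 when single arrays were left out, and was 0 without replicate 2 of either R848 group. It was 1 for the interaction with array weights (Csf3). For a replicate number used as a block, Csf2rb2 passed for R848 in knockout (limma adjusted p = 0.0248), where every number met the minimum correlation. It also passed in wild type (limma adjusted p = 0.0377), where number 2 did not meet it. The wild-type r was 0.25, -0.06 and 0.23 for numbers 1, 2 and 3. With correlated pairs of the same genotype and number Csf2rb2 did not pass (limma adjusted p = 0.0797 in knockout). The block changed no other call of the 7 genes, and it raised the all-gene count with saline from 47 to 99 and averaged over treatments from 251 to 402. The count with saline was 8 with only the arrays compared, 31 with no filter, 31 with the dimmest row, and 10 to 65 with arrays left out. The interaction count of 2 went to 1 to 2 with arrays left out. The averaged count was 393 with array weights, 118 with correlated pairs and 73 to 249 with arrays left out. Cyclic loess moved the share of calls that were higher from 37.4% to 47.8% for R848 in knockout. Between genotypes the share moved from 42.6% to 56% with saline, from 42.1% to 59.3% with R848 and from 43.4% to 67.3% averaged, where median centring gave 29.8%. The causes were not tested.

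Small values below the threshold changed sign. With median centring Csf2ra for R848 in wild type was -0.007, Csf2rb2 between genotypes was -0.007 with saline, with R848 and averaged, its interaction was 0, and Csf1r with R848 was -0.01. With array weights Csf2ra for R848 in wild type was -0.066, Csf2rb2 with saline -0.005 and Csf2rb with R848 0.03, and the last was 0.019 with cyclic loess. With single arrays left out, Csf2ra for R848 in wild type ran from -0.115 to 0.095. Between genotypes with saline Csf1 ran from -0.375 to 0.23, Csf2rb from -0.24 to 0.05 and Csf2rb2 from -0.107 to 0.09. With R848 Csf1r ran from -0.015 to 0.055, Csf2ra from -0.155 to 0.09, Csf2rb from -0.162 to 0.083 and Csf2rb2 from -0.087 to 0.16. Interactions ran from -0.083 to 0.207 for Csf2rb and from -0.09 to 0.157 for Csf2rb2. Averaged differences ran from -0.028 to 0.275 for Csf1, from -0.137 to 0.008 for Csf2rb and from -0.042 to 0.082 for Csf2rb2. Signal over background limits Csf2 and Csf3 most.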
